A study of Mus musculus with 12 samples.

Results

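Collagens are the triple-helical proteins of the extracellular matrix, and their genes were read here across the whole brain at a stage when the brain itself is mostly neurons and progenitors. Members were every gene whose symbol has the form Col, number, a, number, which gave 44 of 46078 genes. They were measured by RNA-seq in 12 libraries, each from 1 embryonic brain at E15.5 on the C57BL/6 background. WT females, Nsd2 KO females, WT males and Nsd2 KO males gave 3 libraries each. KO embryos came from a line made by CRISPR/Cas9 editing and lack NSD2, the methyltransferase that places mono- and dimethyl marks on histone H3 lysine 36, in every cell. No treatment was given, and WT embryos of the same sex were the controls. The comparisons asked whether collagen RNA differed between KO and WT brains, whether that difference depended on sex, and how collagen levels varied from brain to brain.

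Several chains wind into each collagen molecule, and many collagens need RNA from more than 1 gene. Fibrillar collagens form the cables of connective tissue, type IV forms the sheet under endothelium and at the brain surface, type VI forms beaded filaments, and the fibril-associated collagens with interrupted triple helices (FACITs) decorate fibrils. In the brain, fibrillar and type VI chains come mainly from fibroblasts of the meninges and around vessels, type IV chains come from vascular cells and the pia, and several FACIT and transmembrane collagens are made by neurons.

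The library totals ran from 40398665 to 59304196 counts. Levels are given as CPM (counts scaled to library size with TMM) or, to compare genes, as CPM per kb of merged exons. The targeted gene, Whsc1 in these tables, was at 350.9 to 407.0 CPM in the 6 WT libraries and at 0.909 to 2.67 CPM in the 6 KO libraries. The 10 brain neuron markers summed to between 5999 and 6830 CPM in every library. Hox genes, which mark hindbrain and spinal cord, summed to 0.857 to 271 CPM, and 6 libraries of mixed genotype and sex had under 1 CPM of Hoxa5. Genes with an adjusted p under 0.05 in edgeR's quasi-likelihood test, with Benjamini-Hochberg adjustment over all genes tested, are called DEGs. Log2 fold changes (log2FC) are KO over WT, and their SE was derived from the F statistic. The p-values set each difference against the spread between brains, taken among the 3 brains of a group in single-sex and interaction fits. Genotype over both sexes and males against females came from additive fits over 12 libraries. The spread in those also holds any difference of the KO effect between the sexes.

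The region upstream of the transcription start is shown for the 1 collagen DEG of the genotype comparison, for Col3a1, Col5a1 and Col6a3, which were all lowest in WT male 3, and for Col25a1, which was higher in every KO male than in every WT male. The sequences are the 250 bases before the RefSeq start on GRCm38.p6, cut where they entered an annotated exon, and 35 of the 44 members had an entry. Col25a1 begins further upstream in GENCODE M21, so its window lies inside that longer span. Capitals mark the CCAAT box, the TATA box spelled TATAAA and the GC box spelled GGGCGG, each looked for on either strand, and the windows run 5′ to 3′ on the gene's strand.
Col19a1 (chr1:24587473-24587687, minus strand): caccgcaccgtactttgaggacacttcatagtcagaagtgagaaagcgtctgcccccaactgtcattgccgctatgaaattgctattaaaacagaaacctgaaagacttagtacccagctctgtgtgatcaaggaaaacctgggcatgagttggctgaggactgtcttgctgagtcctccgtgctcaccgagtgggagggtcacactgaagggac
Col3a1 (chr1:45311288-45311537, plus strand): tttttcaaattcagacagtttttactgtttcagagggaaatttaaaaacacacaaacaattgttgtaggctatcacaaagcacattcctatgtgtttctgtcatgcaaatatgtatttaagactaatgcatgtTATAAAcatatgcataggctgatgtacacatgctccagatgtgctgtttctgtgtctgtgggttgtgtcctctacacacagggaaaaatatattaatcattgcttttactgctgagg
Col5a1 (chr2:27886175-27886424, plus strand): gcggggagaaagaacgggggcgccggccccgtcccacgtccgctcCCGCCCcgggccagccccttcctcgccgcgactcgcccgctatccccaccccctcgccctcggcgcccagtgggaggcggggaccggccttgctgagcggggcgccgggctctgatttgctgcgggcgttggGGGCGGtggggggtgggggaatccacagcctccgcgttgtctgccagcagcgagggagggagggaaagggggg
Col6a3 (chr1:90843972-90844221, minus strand): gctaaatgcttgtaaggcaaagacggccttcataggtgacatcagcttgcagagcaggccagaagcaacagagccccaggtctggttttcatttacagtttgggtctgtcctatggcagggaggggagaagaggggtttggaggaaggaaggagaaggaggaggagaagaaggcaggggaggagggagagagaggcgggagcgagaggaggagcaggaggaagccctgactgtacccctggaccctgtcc
Col25a1 (chr3:130180595-130180844, plus strand): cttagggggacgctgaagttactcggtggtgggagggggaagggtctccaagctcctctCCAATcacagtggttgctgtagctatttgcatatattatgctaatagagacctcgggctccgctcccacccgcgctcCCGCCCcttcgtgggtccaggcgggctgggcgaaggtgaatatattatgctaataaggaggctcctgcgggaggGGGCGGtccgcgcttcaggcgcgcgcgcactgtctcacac

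The Col3a1 window held TATAAA, those of Col5a1 and Col25a1 each held GGGCGG 2 times, and that of Col25a1 also held CCAAT. The Col6a3 and Col19a1 windows held none of the 3 motifs. Across 32851 promoter windows of all genes, CCAAT stood in 33.8%, TATAAA in 12.4% and GGGCGG in 32.7%. Among 38 windows of collagen genes the shares were 34.2%, 13.2% and 57.9%. These are matches of letters and no binding was measured.

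Levels per kb ran from 31.4 for Col4a1 down to 0.0217 for Col10a1. Type IV chains led, with Col4a2 next at 24.4 CPM per kb averaged over the 12 libraries, followed by the fibrillar chains Col1a1 and Col3a1 at 21.0 each and Col1a2 at 12.3. Col18a1, a multiplexin of basement membranes whose C-terminal fragment is endostatin, came sixth at 8.62, and Col2a1, the main chain of cartilage fibrils, came seventh at 6.01. The order within these depends on the transcript length used. With the longest annotated transcript in place of merged exons, Col3a1 was at 37.0, Col4a1 at 35.4, Col1a2 at 28.6 and Col4a2 at 25.0 CPM per kb.

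Of the remaining classes, the most abundant by CPM were Col6a3 for type VI (26.2 CPM) and Col12a1 for the FACITs (26.4 CPM). Col26a1 led the unclassified collagens (28.2 CPM) and Col25a1 the transmembrane collagens (19.7 CPM). CPM is not scaled for gene length, and per kb the order changed. Col6a1 (4.56 CPM per kb) was then above Col6a3 (2.19), Col9a3 (4.32) above Col12a1 (1.73) and Col23a1 (2.96) above Col25a1 (1.53). Col8a2, a short-chain collagen of the cornea, averaged 10.49 CPM and Col7a1, the anchoring fibril of skin, 1.75 CPM. Col10a1, the hypertrophic cartilage chain, had 44 counts in all 12 libraries together and was not tested in the main fits. Col17a1, a hemidesmosome protein of skin, had 116 counts in all and was not tested in the main fit of males. These low values for the skin and growth plate collagens stood beside markers of those tissues that were also low. The 8 epidermal markers summed to at most 13.5 CPM and the bone markers to at most 21.5 CPM in any library. The 12 cartilage markers summed to 62.6 to 108 CPM, nearly all from Sox9, which brain progenitors also express, while Acan was at 0.137 to 1.59 CPM and Matn1 at 0 to 0.206 CPM.

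Collagen RNA varied from brain to brain far more than most RNA. The 44 genes summed to 1374, 2379 and 720.7 CPM in WT males 1 to 3, to 894.0, 1155 and 1352 CPM in KO males, to 2092, 1044 and 1854 CPM in WT females, and to 1324, 1533 and 1153 CPM in KO females. The highest and the lowest library were thus both WT males, 3.30-fold apart, and the KO brains of each sex lay inside the range of their WT group. The biological coefficient of variation estimated by edgeR had a median of 28.5% over the 43 collagens tested and 14.8% over all 19768 genes tested. Among genes of at least 1 CPM the medians were 28.1% for 36 collagens and 12.1% for 15053 genes.

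**Figure D1:**
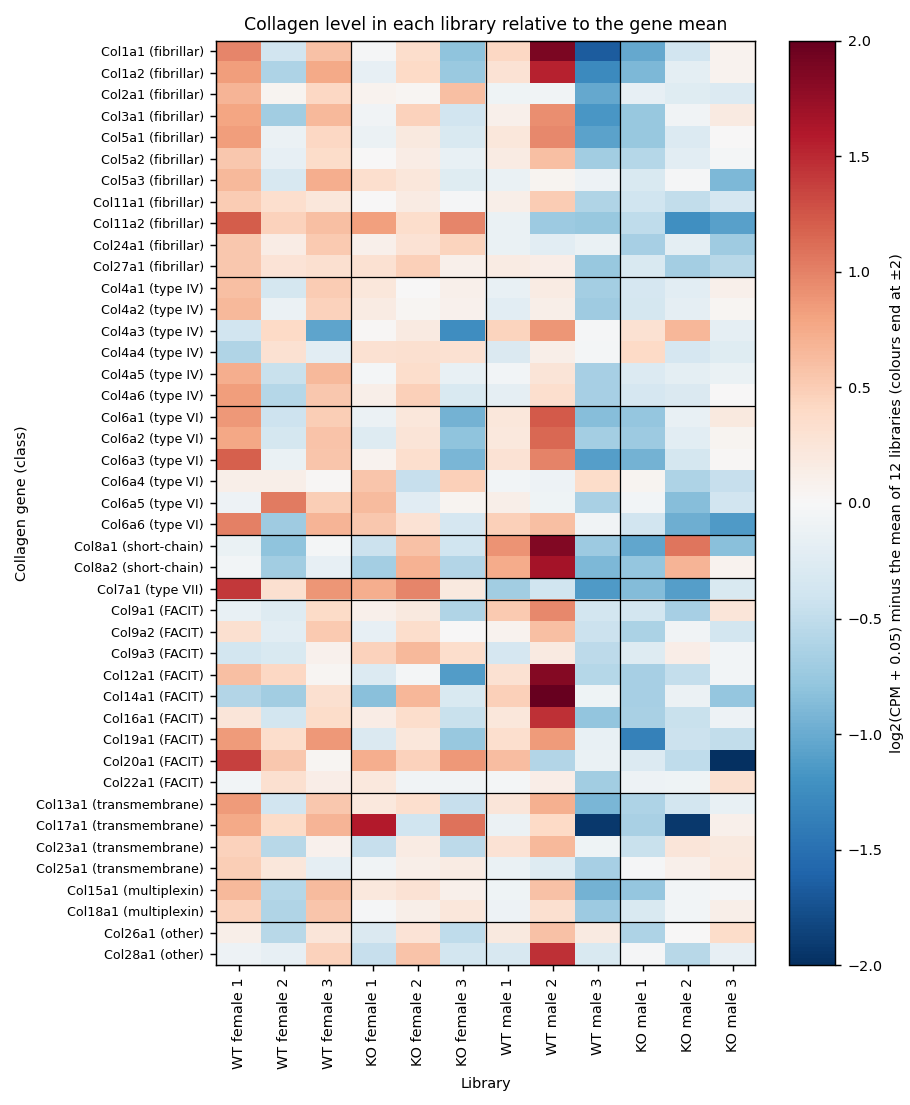
Level of each of the 43 tested collagen genes (vertical axis, by class) in each of the 12 libraries (horizontal axis), as log2(CPM + 0.05) minus the gene's mean, with red above and blue below the mean. WT male 2 and WT female 1 are red and WT male 3 is blue across most fibrillar, type IV and type VI genes.

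The same few brains stood at the extremes for most members. WT male 2 was the highest library for 18 of the 43 tested collagens (41.9%) and for 14.1% of all genes tested. WT female 1 was the highest for 16 (37.2%), against 11.8% of all genes. WT male 3 was the lowest for 23 (53.5%), against 9.06% of all genes. Fibrillar collagens summed to between 261 CPM in WT male 3 and 1368 CPM in WT male 2, a 5.23-fold range. The scarcer short-chain collagens ranged 6.01-fold, from 7.48 to 45.0 CPM, and type VII 6.24-fold, from 0.646 to 4.03 CPM. Type VI ranged 3.88-fold, type IV 2.48-fold and the transmembrane class 1.88-fold, from 28.6 to 53.6 CPM. The fibrillar share of all collagen CPM moved between 36.3% and 57.5%.

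Col1a1, 1 of the 2 chains of type I collagen, shows the pattern in single brains. It was at 149.4, 414.6 and 35.4 CPM in WT males, at 55.4, 86.1 and 117.3 in KO males, at 221.5, 86.6 and 168.7 in WT females and at 110.3, 142.8 and 64.0 in KO females. WT males alone spanned 11.7-fold and enclosed all other libraries. Col14a1, a FACIT of dense connective tissue, reached 24.8 CPM in WT male 2 and lay between 2.26 and 6.47 CPM in the other libraries. Col8a1 and Col8a2 were also highest in WT male 2, at 16.4 and 28.5 CPM. The 4 highest libraries for Col8a2, at 14.4 to 28.5 CPM, were the 4 highest for the choroid plexus markers, at 582 to 906 CPM. The other 8 libraries had 4.81 to 9.47 CPM of Col8a2 and 243 to 509 CPM of those markers.

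Markers of fibroblasts moved with these levels. The 17 meningeal and perivascular fibroblast markers, led by Pdgfra, summed to 281, 422 and 195 CPM in WT males 1 to 3, to 170 to 276 CPM in KO males, to 187 to 320 CPM in WT females and to 141 to 269 CPM in KO females. None of the 17 was at 0 throughout, and Pdgfra is also made by glial precursors. The highest sum was in WT male 2, as for fibrillar collagen. WT male 3 ranked low on both without being the lowest on the markers. Markers of Schwann cells and sensory neurons (211 CPM) and of bone (21.5 CPM) were also highest in WT male 2. The next libraries had 156 and 13.1 CPM. Of the bone sum in WT male 2, Alpl was 14.8 CPM and each other bone marker at most 2.36 CPM. Endothelial markers ranged from 251 to 375 CPM and markers of pericytes and smooth muscle from 238 to 325 CPM. Choroid plexus markers were led by Ttr. In bulk tissue, more cells of a type and more RNA per cell cannot be told apart. The part of these markers in the spread of collagens was not tested.

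**Figure D2:**
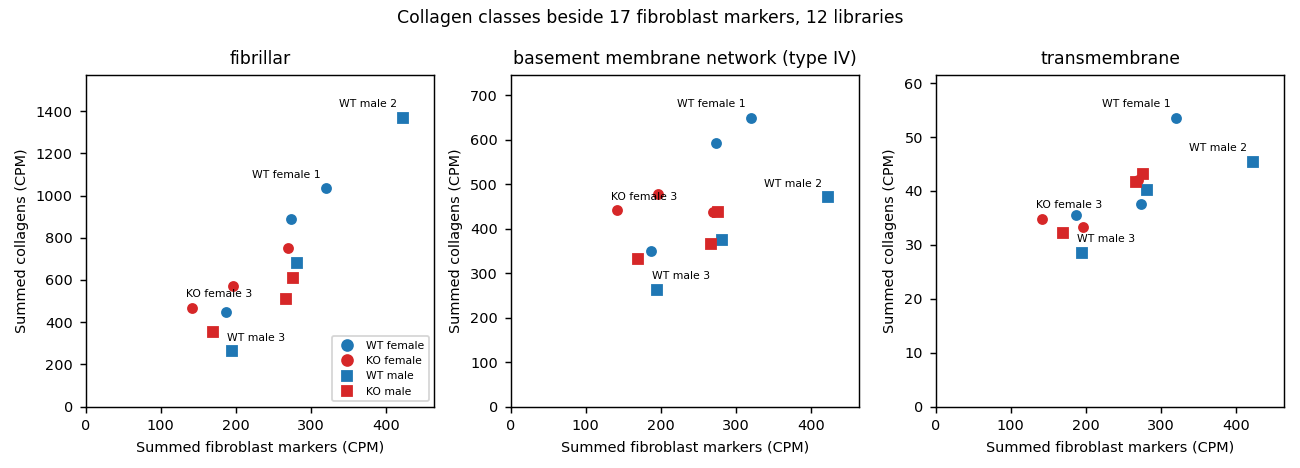
Summed CPM of fibrillar, type IV and transmembrane collagens (vertical axes) against summed CPM of 17 fibroblast markers (horizontal axes), 1 point per library, circles for females, squares for males, blue for WT and red for KO. WT male 2 is highest on the marker axis at 422 CPM and on the fibrillar axis at 1368 CPM, while transmembrane collagens span only 28.6 to 53.6 CPM.

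Partner chains of types IV and VI nearly kept their ratio while their levels moved, those of type I less so and those of type IX not. Col4a1 and Col4a2, which wind together into the common form of type IV and lie head to head on chromosome 8, had a ratio per kb of 1.09 to 1.35 over the 12 libraries, although their levels spanned 2.42-fold and 2.56-fold. Col6a1 to Col6a2, both obligate chains of type VI, had a ratio of 1.49 to 1.87 at level ranges of 4.54-fold and 3.88-fold. Col1a1 to Col1a2 was looser, from 1.23 in WT male 3 to 2.06 in WT male 2, over ranges of 11.7-fold and 6.97-fold. The mean of that ratio was 1.63 with merged exons and 0.777 with the longest transcripts, so its absolute size depends on the lengths used and its spread between libraries does not. Type IX collagen holds Col9a1, Col9a2 and Col9a3 chains, but Col9a1 was at only 0.0262 to 0.0960 of the Col9a3 level per kb. This ratio spanned 3.66-fold, and Col9a3 was at 11.2 to 25.3 CPM where Col9a1 was at 0.677 to 2.18 CPM.

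**Figure D3:**
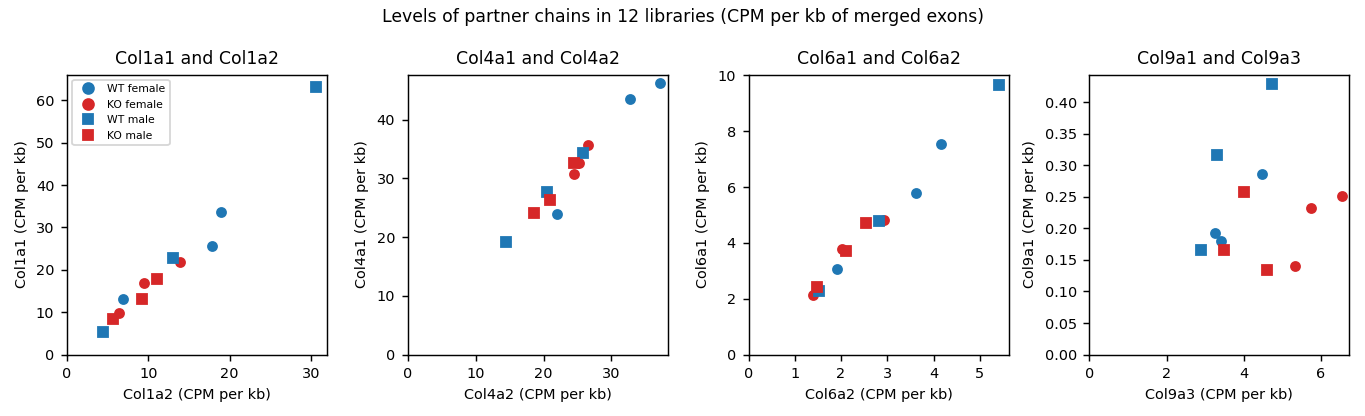
Levels of 4 pairs of partner chains in CPM per kb of merged exons, 1 point per library, circles for females, squares for males, blue for WT and red for KO. Col4a1 and Col4a2 lie near 1 line with a ratio of 1.09 to 1.35, as do Col6a1 and Col6a2, while Col9a1 and Col9a3 scatter with ratios of 0.0262 to 0.0960.

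Between KO and WT males no collagen was a DEG. Of 42 collagens tested, 0 passed edgeR's test in either direction, where 0.343% of all genes were lower and 0.123% higher (0.466% in either direction), and DESeq2 called 0 as well, where it called 362 lower and 122 higher of 18672 genes. At an unadjusted p under 0.05 there were 3 (7.14%), against 11.9% of all genes. The point estimates were mostly below 0, for 34 of 42 collagens, with a median log2FC of -0.41 against -0.01 over all genes. The size of that median depended largely on WT male 2. It was -0.09 without this library, with 26 of 42 estimates still below 0, and -0.66 without WT male 3.

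Females gave the same result with smaller estimates. Of 43 collagens tested, 0 were DEGs by edgeR, where 0.0107% of all genes were lower and 0.0107% higher (0.0214% in either direction), and 4 had an unadjusted p under 0.05 (9.30%, against 7.48% of all genes). DESeq2 called 1, Col9a3, where it called 130 lower and 50 higher of 18710 genes. Estimates were below 0 for 35 of 43, with a median log2FC of -0.17 against 0.01 over all genes. The median ranged from -0.07 without WT female 1 to -0.35 without WT female 2.

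With both sexes in 1 additive fit, Col19a1 was the 1 collagen DEG among 43 tested, lower in KO (2.33%, where 1.52% of all genes were lower and 0.374% higher, 1.9% in either direction). None was higher by either edgeR or DESeq2. Estimates lay below 0 for 38 of 43 collagens (88.4%, against 49.4% of all genes) and their median was -0.32 against 0.00. Leaving out 1 library at a time moved that median between -0.40 (without WT male 3) and -0.17 (without WT male 2). At an unadjusted p under 0.05 there were 5 collagens (11.6%), fewer in proportion than the 13.7% of all genes. Collagens vary together from brain to brain, so the count below 0 is not a count of separate observations. A covariate of the mean log2 level of the fibroblast markers was added after seeing the data. With it, 24 of 43 were below 0 and the median was -0.03, while Col19a1 remained a DEG. The sexes differed under this covariate, with 30 of 42 collagens below 0 in males and 16 of 43 in females.

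Col19a1, a FACIT made by subsets of neurons and by embryonic muscle, was a low-abundance member, at 0.255 CPM per kb. It was at 2.90, 2.02 and 2.93 CPM in WT females and at 1.29, 1.86 and 0.913 CPM in KO females. In males it was at 2.01, 2.89 and 1.42 CPM in WT and at 0.588, 1.16 and 1.11 CPM in KO. Within each sex every KO brain lay below every WT brain, although KO female 2 was above WT male 3. The log2FC was -1.05 (SE 0.235, adjusted p = 0.0376) over both sexes. Separately it was -1.15 (SE 0.340, adjusted p = 0.265) in males and -0.96 (SE 0.305, adjusted p = 0.561) in females.

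The Col19a1 call was close to the threshold. Leaving out 1 library at a time kept the log2FC between -1.19 and -0.90 but lost the call in 9 of 12 cases, with the largest adjusted p at 0.101 without WT male 2. Among the 6 libraries low in Hoxa5 the log2FC was -1.08 (adjusted p = 0.404). With the fibroblast markers as a covariate it was -0.78 (adjusted p = 0.0160) and with the Hox genes it was -1.05 (adjusted p = 0.0347). Col19a1 occupies chr1:24261890-24587472 on the minus strand of GRCm38, and its 3′ end lies 9205 bases from that of Col9a1, another FACIT gene that points toward it. Col9a1 was at 0.980, 0.913 and 1.45 CPM in WT females and at 1.18, 1.27 and 0.708 CPM in KO females. In males it was at 1.60, 2.18 and 0.843 CPM in WT and at 0.837, 0.677 and 1.30 CPM in KO. Its groups overlapped in both sexes, with a log2 fold change over both sexes of -0.41 (SE 0.269, adjusted p = 0.554).

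**Figure D4:**
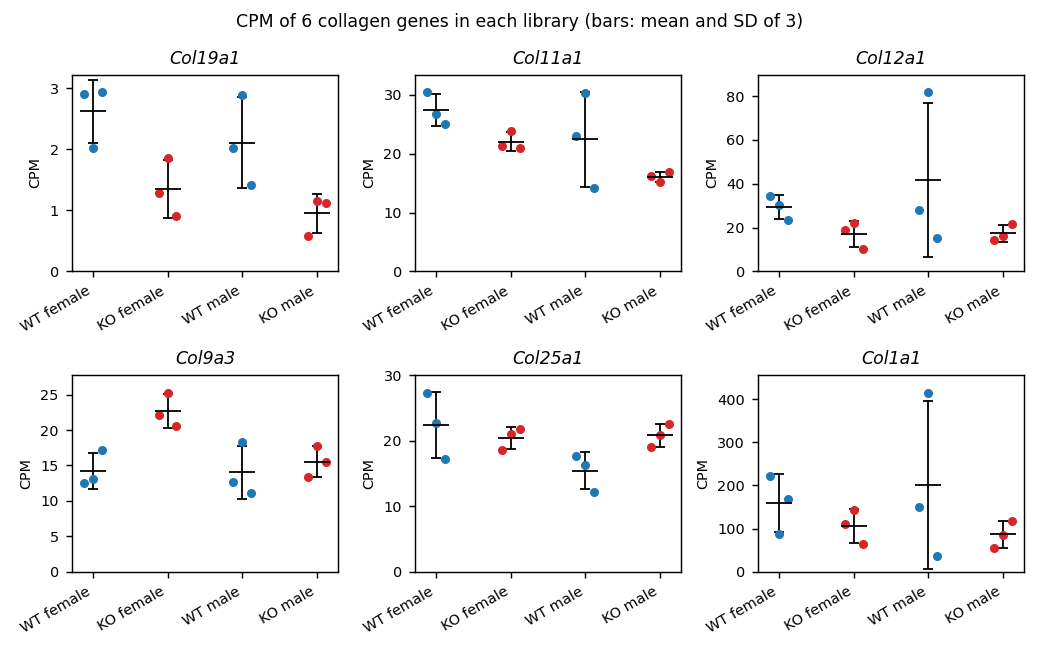
CPM of 6 collagen genes (vertical axes) in the 4 groups (horizontal axes), 1 point per library, blue for WT and red for KO, with bars for the mean and SD of 3. KO points lie below WT points in both sexes for Col19a1 only, and Col1a1 shows the 35.4 to 414.6 CPM span of WT males.

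Few members had groups that did not overlap within a sex, counted on CPM scaled among the 6 libraries of that sex. In males all 3 KO brains lay below all 3 WT brains for Col19a1, Col14a1 and Col6a6 (3 of 42, 7.14%, against 8.72% of all genes), and above them for Col25a1 (2.38%, against 8.59%). In females they lay below for Col19a1, Col11a1 and Col12a1 (3 of 43, 6.98%, against 6.18%) and above for Col9a3 (2.33%, against 7.98%). On the CPM scaled over all 12 libraries, as printed elsewhere, the same members stood apart and Col4a4, a type IV chain of mature basement membranes, joined Col9a3. It was at 0.980, 1.876 and 1.30 CPM in WT females and at 1.878, 1.905 and 1.882 CPM in KO females, so that its groups nearly touched. These shares are near or below those of all genes, and the genes other than Col19a1 are named because their values were seen.

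Col9a3, a type IX chain, had the smallest unadjusted p of any collagen in females. It was at 12.5, 13.1 and 17.2 CPM in WT females and at 22.2, 25.3 and 20.5 CPM in KO females, a log2FC of 0.67 (SE 0.141, adjusted p = 0.298 with edgeR and 0.00817 with DESeq2). In males it was at 12.7, 18.3 and 11.2 CPM in WT and at 13.4, 17.8 and 15.47 CPM in KO, and these groups overlapped. Over both sexes it had a log2FC of 0.41 (SE 0.144, adjusted p = 0.222), which passed only without WT male 2 (0.54, adjusted p = 0.0366). Its merged exons share 6.07% of their length with Tcfl5 on the other strand, and the strand setting of the counting is not stated.

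Col11a1 and Col12a1, a minor fibrillar chain that sets fibril width and a FACIT of tendon and fascia, were lower in every KO female. Col11a1 was at 30.4, 26.8 and 25.0 CPM in WT females and 21.4, 23.9 and 21.0 CPM in KO females. In males the WT values of 23.0, 30.3 and 14.1 CPM enclosed the KO values of 16.2, 15.2 and 16.9 CPM. Over both sexes its log2FC was -0.40 (SE 0.140, adjusted p = 0.214), and it became a DEG only when WT male 3, the lowest WT brain, was left out.

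Col12a1 was at 34.3, 30.4 and 23.3 CPM in WT females against 18.8, 22.1 and 10.46 CPM in KO females. WT males were at 28.1, 81.7 and 15.2 CPM and KO males at 14.4, 16.3 and 21.8 CPM, and WT male 2 alone was above every female. The log2FC over both sexes was -1.02 (SE 0.376, adjusted p = 0.263).

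Col25a1, a neuronal transmembrane collagen needed for motor axons to enter muscle, was at 17.6, 16.3 and 12.2 CPM in WT males and at 19.0, 20.9 and 22.5 CPM in KO males. Females overlapped, at 27.3, 22.7 and 17.1 CPM in WT and 18.6, 21.1 and 21.8 CPM in KO. The log2FC was 0.43 in males (SE 0.140, adjusted p = 0.298) and -0.13 in females (SE 0.171, adjusted p = 0.888). The interaction of sex and genotype was 0.56 (SE 0.237, adjusted p = 0.910).

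By class, estimates over both sexes lay below 0 for 11 of 11 fibrillar and 6 of 6 type VI genes, with medians of -0.32 and -0.63, and none of these was a DEG. The fibrillar estimate farthest from 0 was that of Col1a1, at -0.90 (SE 0.527, adjusted p = 0.510). Col5a2, a type V chain that helps to start fibrils, was at 58.4, 35.9 and 51.7 CPM in WT females and 40.5, 44.7 and 36.5 CPM in KO females. In males it was at 45.0, 61.2 and 25.0 CPM in WT and 27.1, 35.0 and 39.2 CPM in KO. Its groups overlapped in both sexes, and its estimate was -0.32 (SE 0.193, adjusted p = 0.517). Type VI estimates ran from -0.80 for Col6a6 to -0.12 for Col6a4, with Col6a3 at -0.69 (SE 0.370, adjusted p = 0.459). Type IV was closer to 0, with a median of -0.10 over 6 genes and Col4a1 at -0.08 (SE 0.170, adjusted p = 0.888). The FACITs were spread from -1.05 for Col19a1 to 0.41 for Col9a3. Transmembrane genes split evenly around 0, 2 below and 2 above.

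**Figure D5:**
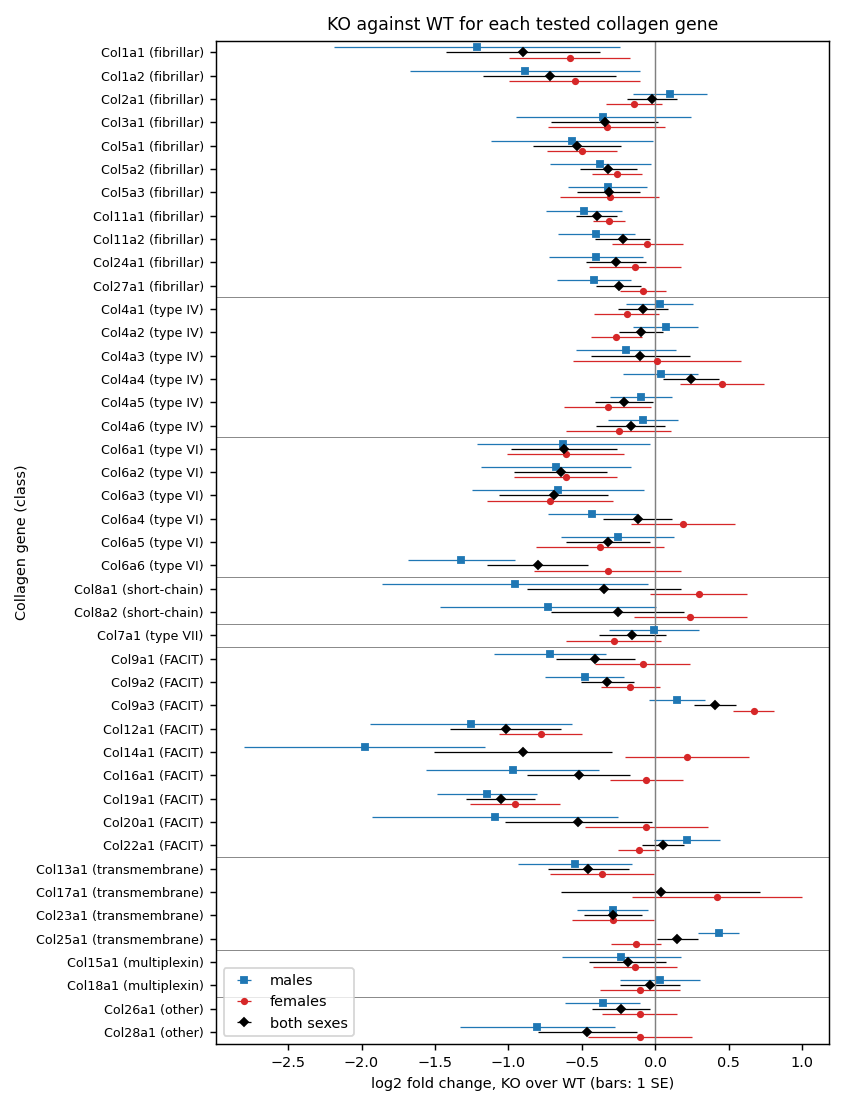
Log2 fold change of KO over WT (horizontal axis) for each tested collagen gene (vertical axis, by class), with squares for males, circles for females, diamonds for both sexes and bars of 1 SE. Of the 43 diamonds 38 lie left of 0, and 1 of them, Col19a1, is a DEG.

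No collagen passed the test for a KO effect that differed between the sexes. Of 43 tested for an interaction, 0 were called by edgeR or DESeq2, where edgeR called 0% of all genes, and 2 collagens had an unadjusted p under 0.05, Col25a1 and Col14a1 (4.65%, against 4.45% of all genes). Col14a1 was lower in KO males by a log2FC of -1.98 (SE 0.820, adjusted p = 0.438) and stood at 0.22 (SE 0.422, adjusted p = 0.931) in females. The median interaction of the collagens was -0.19, and 0.19 without WT male 2.

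Male libraries had less RNA than female libraries for 5 collagens, all of them called lower. This was 11.6%, where 12.9% of all genes were lower and 10.9% higher (23.7% in either direction). At an unadjusted p under 0.05 there were 12 collagens (27.9%, against 35.5% of all genes). Collagens were thus called no more often than other genes. Col11a2, a minor fibrillar chain of cartilage and the inner ear, was at 4.92 to 8.95 CPM in females (median 6.33) and at 1.60 to 3.47 CPM in males (median 2.28), with no overlap among 6 and 6 libraries. Its log2 difference, males over females, was -1.51 (SE 0.191, adjusted p = 0.000106). Col7a1 was at 1.70 to 4.03 CPM in females (median 2.62) and 0.646 to 1.18 CPM in males (median 0.837), a log2 difference of -1.58 (SE 0.232, adjusted p = 0.000355). These ranges did not overlap.

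The other 3 differed by less. Col24a1, a fibrillar chain of bone and brain, ran from 0.430 to 0.599 CPM in females (median 0.527) and 0.223 to 0.359 CPM in males (median 0.337), without overlap (-0.78, SE 0.203, adjusted p = 0.0147). Col27a1, a fibrillar chain of cartilage, ran from 5.54 to 7.57 CPM (median 6.43) and 3.05 to 5.83 CPM (median 3.83) (-0.66, SE 0.156, adjusted p = 0.00878), and its ranges overlapped. Col2a1 ran from 54.7 to 84.9 CPM (median 63.5) and 26.2 to 50.8 CPM (median 46.4), without overlap (-0.62, SE 0.171, adjusted p = 0.0222, or 0.0554 without KO female 3). All 5 remained DEGs with RLE scaling, without the filter and with either marker covariate. Male and female libraries came in separate tables, and 2 versions of the ribosomal RNA depletion kit and 2 sequencers were used without a record of which library had which, so sex and these steps cannot be told apart.

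Genes that make, cross-link, bind or degrade collagen were given by 6 lists with 101 genes in all. Over both sexes 95 were tested and edgeR called 0 in either direction, where it called 1.9% of all genes. DESeq2 also called 0, where it called 588 lower and 218 higher of 19768 genes. An unadjusted p under 0.05 was found for 7 of the 95, 4 lower and 3 higher, a smaller share than the 13.7% of all genes. In males DESeq2 called 1 lower, Timp4, an inhibitor of matrix metalloproteinases, against 362 lower of 18672 genes. In each sex edgeR called 0, where it called 0.466% of all genes in males and 0.0214% in females. The median log2 fold change over both sexes was -0.01 for 23 genes of chain folding, hydroxylation and secretion. It was -0.12 for 14 processing and cross-linking genes, -0.35 for 20 fibril-associated proteins, -0.23 for 18 basement membrane partners of type IV, -0.01 for 10 receptors and -0.26 for 10 degrading enzymes and inhibitors. The median of the fibril-associated proteins was -0.28 in males and -0.06 in females.

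Among the most abundant of these genes, Serpinh1, the collagen chaperone HSP47, was at 116.1 to 208.4 CPM and highest in WT male 2, with a log2FC of -0.11 (SE 0.127, adjusted p = 0.773). P4hb, a subunit of prolyl hydroxylase that also serves other proteins, was at 0.05 (SE 0.0784, adjusted p = 0.861). Pxdn, which cross-links type IV collagen, was at -0.07 (SE 0.0759, adjusted p = 0.755), and Bmp1, which trims procollagen ends, was at -0.08 (SE 0.0978, adjusted p = 0.804).

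Fn1, fibronectin, was at -0.37 (SE 0.229, adjusted p = 0.532) and Sparc, a collagen-binding glycoprotein, at -0.15 (SE 0.157, adjusted p = 0.745). Nid1, which links laminin to type IV, was at -0.26 (SE 0.197, adjusted p = 0.626) and Agrn at 0.00 (SE 0.0897, adjusted p = 0.993). Adgrg1, the type III collagen receptor of cortical progenitors, was at 0.08 (SE 0.0888, adjusted p = 0.779), and Ddr1, a collagen-activated kinase, at 0.12 (SE 0.110, adjusted p = 0.713). Timp2, an inhibitor of matrix metalloproteinases, was at -0.14 (SE 0.0669, adjusted p = 0.368) and Mmp15 at -0.02 (SE 0.0686, adjusted p = 0.930).

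Markers of other cells did not pass the test by genotype in edgeR. Of 137 genes in the 13 marker lists, 125 were tested over both sexes and edgeR called 0, where it called 1.9% of all genes. An unadjusted p under 0.05 was found for 11 of the 125, 9 lower and 2 higher, a smaller share than the 13.7% of all genes. DESeq2 called Scn9a lower and Crabp2 higher, against 588 lower and 218 higher of 19768 genes. The 16 fibroblast markers tested had a median log2FC of -0.34 over both sexes, with 15 below 0, close to the collagen median of -0.32. Crabp2, which DESeq2 called higher, belongs to this list. The other lists had medians of -0.02 for endothelium, -0.13 for pericytes and smooth muscle, 0.24 for choroid plexus, -0.86 for cartilage, -0.19 for bone, -0.17 for epidermis and -0.07 for skeletal muscle. Those of Schwann cells and sensory neurons, Hox genes, brain neurons, progenitors and red blood cells were -0.93, -0.76, 0.02, 0.12 and 0.09. Several of these medians differed in sign or size between the sexes. In males and females they were -2.68 and 1.09 for Hox genes, -1.73 and -0.16 for Schwann cells and sensory neurons, -0.87 and 0.24 for cartilage, -0.33 and 0.48 for red blood cells, -0.15 and 0.53 for choroid plexus, and -0.49 and 0.20 for skeletal muscle. The fibroblast medians were -0.29 and -0.37. These differences between the sexes were not tested as lists. The collagen median over both sexes was -0.31 with the Hox level as a covariate. The part of the other marker lists in the collagen estimates was not tested.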

How the data were processed

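RNA-seq was performed on E15.5 brains of 3 WT and 3 Nsd2 KO embryos of each sex. The deposited values are whole-number counts of 46078 genes without normalization. The authors trimmed reads to 75 bp, aligned them to mm10 with HISAT2 2.1.0 and made the counts from StringTie 2.0.6 coverage. Reads of overlapping genes may be split between them, and the strand setting of the counting is not given in the sources used here.

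KO was compared with WT using edgeR 4.0.16 (R 4.3.3): filterByExpr (at least 10 counts), TMM, robust quasi-likelihood F tests and Benjamini-Hochberg adjustment over all genes tested. The paper names edgeR and the 0.05 cutoff but not which edgeR test. It reports more genes in KO males, in either direction, than the 64 lower and 23 higher called here. The samples entered within each sex, then together with sex as a term or an interaction. Alternatives were RLE, DESeq2 1.42.0, other filters, library sizes without small RNAs, mitochondrial genes, globins and histones, Hox and fibroblast marker covariates, the replicate block and each library left out.

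Values are given for collagens called in any comparison, the 8 most abundant by CPM, the most abundant of each class by CPM and the paired chains. Of each pathway list they are given for the called members or else the 2 most abundant. Other genes were named after their values were seen. The members and lists were chosen with earlier results of these data known. Exon lengths came from GENCODE M21 and promoters from RefSeq. Fits were tested on simulated counts. Figures were drawn with matplotlib 3.10.9.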

Additional observations from a re-analysis of the deposited data

How the results depend on the processing

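Of the alternatives that leave all libraries in, RLE scaling, no filter, the filter of more than 1 CPM and library sizes without small RNAs, mitochondrial genes, globins and histones kept the counts of collagen DEGs within 1.5 times in every comparison. DESeq2 gave 1 higher collagen in females in place of 0, and 8 in place of 5 lower in males than in females. Over both sexes the count of lower collagens went from 1 to 0 in the libraries under 1 CPM of Hoxa5 and to 0 without both WT male 2 and WT male 3 (adjusted p of Col19a1 = 0.151), an alternative chosen after seeing the data. These sets held fewer libraries. Estimates lay below 0 for 38 of 44 collagens in the first set and for 40 of 44 in the second. Leaving out 1 library gave 0 to 2 lower and 0 to 1 higher collagens over both sexes, and 4 to 9 lower in males than in females (9 without WT female 2, 8 without WT male 2). The 2 lower collagens came without WT male 3 and the higher one, Col9a3, without WT male 2. The call of Col19a1 was lost in the absence of any 1 library other than WT female 2, KO female 2 or WT male 3, at adjusted p of 0.0518 to 0.101. The fibroblast marker covariate, also added after seeing the data, left 1 lower collagen over both sexes, moved the median of all collagens from -0.32 to -0.03 and gave 23 lower in males than in females, among them Col1a1 (log2 difference -0.61 in place of 0.01) and Col6a1 (-0.33 in place of 0.01), which changed sign. The cause was not tested.

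The labels number the replicates of each group 1 to 3. Deviations from the group means of same-numbered WT and KO libraries correlated at -0.0519 to 0.195, below 0.1 for 4 of 6 pairs, so the numbers were not taken as pairs. With the replicate block, the count of lower collagens over both sexes was 0 in place of 1 (Col19a1 log2 fold change -1.07, adjusted p = 0.0803). The block for males against females could not be fitted, since each block holds 1 sex. Col10a1, at 44 counts in all libraries together, did not pass the filter of the main fits. It entered the fits without a filter and those on the libraries under 1 CPM of Hoxa5 or without both WT male 2 and WT male 3. It was not called in them.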
